A study of Mus musculus with 9 samples.

Results

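A set of 10 genes, grouped by name as secondary granule and late neutrophil genes, was followed in myeloid progenitor cells (MPs) of mouse bone marrow. The members were chosen by name and matched by symbol to the Ensembl identifiers of the deposited table, which holds 37980 genes. They were Camp, Ngp, Ltf, Lcn2, S100a8, S100a9, Mmp8, Mmp9, Chil3 and Fcnb, and all 10 were found. In MPs that carried the Nup98-Hoxa10hd fusion gene (NA), Camp, Ngp, S100a9 and Fcnb were 1.48- to 1.87-fold higher than in wild-type (WT) MPs. Mmp8, which rested on few reads and entered the test through its level in WT MPs, was lower. When 1 sample at a time was left out, S100a9 passed the test in only 1 of 9 fits and Ngp in 8 of 9. Ltf, Lcn2, S100a8 and Chil3 did not pass the test, and Mmp9 was too low to be tested. The 10 genes together took 0.061% to 0.0934% of the normalised reads of an NA MP sample and 0.0536% to 0.0622% of those of a WT MP sample.

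Polyadenylated RNA was sequenced from 9 samples, 4 of NA MPs and 5 of WT MPs, all on the C57BL/6 background. In both groups multipotent progenitors (MPPs) had been transplanted into irradiated mice, and 100000 lineage-negative, c-Kit-positive, Sca1-negative cells were sorted per sample from the marrow of the recipients. The labels give 3 months after transplantation for both groups, whereas the study's methods give a later time. NA is a fusion of a nucleoporin with the homeodomain of a Hox protein, and it was expressed from the Rosa26 locus after recombination by Vav-Cre, which acts across blood cells. NA MPs were sorted as Tdtomato+ donor-derived cells. WT MPs were sorted as CD45.2+ cells, and the recipients are themselves described as CD45.2+. Elsewhere the study marks the donor cells of WT MPP recipients as CD45.1+. By that reading a CD45.2+ sort would hold host or helper cells, so that from the stated gates donor and host cells in the WT group cannot be told apart, and WT MP below means only the cells labelled so. The lineage antibodies included those to Mac1 and Gr1, which mark maturing neutrophils. Whether each sample came from 1 mouse is not stated, so the p-values measure only the spread between these samples, which may be technical.

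Neutrophils fill their granules in waves. Primary (azurophil) granules form in promyelocytes and hold myeloperoxidase and serine proteases. Secondary (specific) granules form later, in myelocytes and metamyelocytes, and hold lactoferrin, lipocalin 2 and the cathelicidin precursor, and gelatinase granules follow. Transcription of the secondary granule genes depends on C/EBP-epsilon and on the withdrawal of factors that keep progenitors dividing. In bulk samples such as these, fewer cells of a type and less RNA per cell cannot be told apart.

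Values are given as normalised reads, meaning the deposited reads per gene after division by a size factor for each sample. The steps in the values placed the depth between 5557718 and 8106140 reads per sample, and 3 reads were worth 2.48 to 3.6 normalised reads. NA and WT MPs separated on the first principal component, which held 65.8% of the variance, and NA MP replicate 1 stood apart from the other NA MPs on the second, at 20.3 against -8.9 to -3. Kit was high in both groups, with 2964 ± 133.3 normalised reads in NA MPs (SD, n = 4) and 3038.8 ± 42.4 in WT MPs (SD, n = 5). Ly6g, which encodes an antigen of mature neutrophils that anti-Gr1 binds, though not necessarily its only target, held 0 to 3 reads per sample. Itgam, which encodes the Mac1 antigen, held 507.6 ± 59.7 normalised reads in NA MPs (SD, n = 4) and 417.6 ± 21.3 in WT MPs (SD, n = 5). The 9 samples thus carried the labelled progenitor marker, and the defining gene of mature neutrophils was at or near 0. RNA of the lineage antigen Mac1 was nevertheless present in both groups.

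The members lie on 3 chromosomes of the GRCm38 (mm10) assembly. Camp (chr9:109847379-109849617), Ngp (chr9:110419747-110423012) and Ltf (chr9:111019271-111042767) lie within the same stretch of chromosome 9, with 570 kb between Camp and Ngp and 596 kb between Ngp and Ltf. Mmp8 lies elsewhere on the same chromosome (chr9:7558456-7568485). S100a8 (chr3:90668978-90670035) and S100a9 (chr3:90692632-90695721) are 22.6 kb apart on chromosome 3, which also holds Chil3 (chr3:106147554-106167564). Fcnb (chr2:28076378-28084885), Lcn2 (chr2:32384633-32388252) and Mmp9 (chr2:164940780-164955850) are on chromosome 2. All 10 are protein coding, and no exon of theirs overlaps an exon of another gene in GENCODE release 21 for mouse. Chil4, a near-identical copy of Chil3 that could share its reads, was listed at 0 in every sample.

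Promoter sequence from RefSeq (GRCm38.p6; 250 bases before to 50 after the annotated start) was at hand for 9 of the 10 members, all but Mmp9. It is shown because the C/EBP factors are the textbook regulators of this gene class. The motif TTGCNNAA, a form of the C/EBP site read on both strands, occurred in 6 of the 9 member promoters and in 10.8% of all 32851 promoters of the same length. The motif was picked after the sequences had been seen, and a match is a description of letters, not of binding. Each line gives 30 bases 5′ to 3′ on the strand of the gene, with the match in capitals.
Ngp, chr9:110419659-110419688: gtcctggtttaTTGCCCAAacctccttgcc
Ngp, chr9:110419786-110419815: accggcagttcTTGGGCAAggcagtctcaa
Ltf, chr9:111019206-111019235: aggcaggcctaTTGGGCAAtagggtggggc
Lcn2, chr2:32387937-32387966: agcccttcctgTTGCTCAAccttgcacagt
S100a9, chr3:90695939-90695968: ggtaggctgtcTTGCTTAAgatttgggcgg
Mmp8, chr9:7558399-7558428: ttaggcagaagTTGCTCAAgatgtagcttt
Fcnb, chr2:28085095-28085124: caaggcaggccTTTTGCAAacagaggtgcc
Fcnb, chr2:28084983-28085012: ttttaggtctcTTGTGCAAccagaggcctc

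The Ngp match nearest to the RefSeq start lies 11 bases before it, that of Mmp8 19 bases and that of Ltf 75 bases before it. The RefSeq start lay inside the GENCODE span for 6 of the 9 members (Camp, Ngp, Ltf, Lcn2, S100a8 and Fcnb), at its edge for S100a9 and Chil3, and before it for Mmp8. Of the other motifs searched on both strands, TATAAA was in 4 of the 9 promoters (S100a8, S100a9, Mmp8 and Chil3) and in 13.6% of all promoters. GAGGAA, the core of a PU.1 site, was in 4 of the 9 (Ltf, Lcn2, S100a8 and Mmp8) and in 28.3% of all. AGATAA, which Gata1 and its relatives recognise, was in 3 of the 9 (Ltf, S100a9 and Chil3) and in 11.2% of all. Genes with the C/EBP letters were higher (Ngp, S100a9, Fcnb), lower (Mmp8) or not past the test (Ltf, Lcn2) in NA MPs, and Camp, which was higher, had no match in this window.

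Camp encodes the precursor of the cathelicidin antimicrobial peptide of specific granules. It held 229, 238, 386 and 331 normalised reads in NA MP replicates 1 to 4, and 109, 169, 160.0, 175 and 169.6 in WT MP replicates 1 to 5. The lowest NA MP was above the highest WT MP. The means were 296 ± 75.8 (SD, n = 4) and 156.4 ± 27.1 (SD, n = 5), and the log2 fold change was 0.90 (SE 0.21, 95% interval 0.40 to 1.40, limma adjusted p = 0.0136). SE stands for standard error. Here and for the other members the fold change is on the scale of log2(normalised reads + 1), and p-values were adjusted by Benjamini-Hochberg over the 11987 genes tested.

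Ngp, neutrophilic granule protein, a cystatin-like protein of the same granules, was higher as well. It held 505, 486, 837 and 715 normalised reads in NA MPs and 238.5, 315, 327, 396 and 411 in WT MPs, so that the groups did not overlap. The means were 636 ± 169.5 (SD, n = 4) and 337.5 ± 69.4 (SD, n = 5), a log2 fold change of 0.90 (SE 0.23, 95% interval 0.37 to 1.43, limma adjusted p = 0.0188). The call was lost without NA MP replicate 4, where the log2 fold change was 0.83 with an adjusted p of 0.0523 from limma. Without NA MP replicate 3 it was smaller, at 0.76, and only just past the threshold (limma adjusted p = 0.0463).

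Ltf, which encodes the iron-binding protein lactoferrin and is the usual defining gene of secondary granules, did not pass the test. It held 217, 209, 383 and 279 normalised reads in NA MPs and 140.3, 198, 188.5, 236 and 249 in WT MPs. Only NA MP replicates 3 and 4 were above all WT MPs. The log2 fold change was 0.41 with a 95% interval from -0.15 to 0.97 (SE 0.24, limma adjusted p = 0.239). Without NA MP replicate 3 it was 0.23, and Ltf passed in none of the 9 fits that left out 1 sample.

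Lcn2 encodes lipocalin 2, which binds bacterial siderophores, and its groups overlapped as well. It held 163, 171, 222 and 188 normalised reads in NA MPs and 113, 158, 177, 174 and 178 in WT MPs. WT MP replicate 1 was the lowest of the 9 and NA MP replicate 3 the highest. The log2 fold change was 0.22, with a 95% interval from -0.07 to 0.52 (SE 0.13, limma adjusted p = 0.237). It was 0.10 without WT MP replicate 1 and 0.13 without NA MP replicate 3, and it too passed in none of the 9 fits that left out 1 sample.

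**Figure D1:**
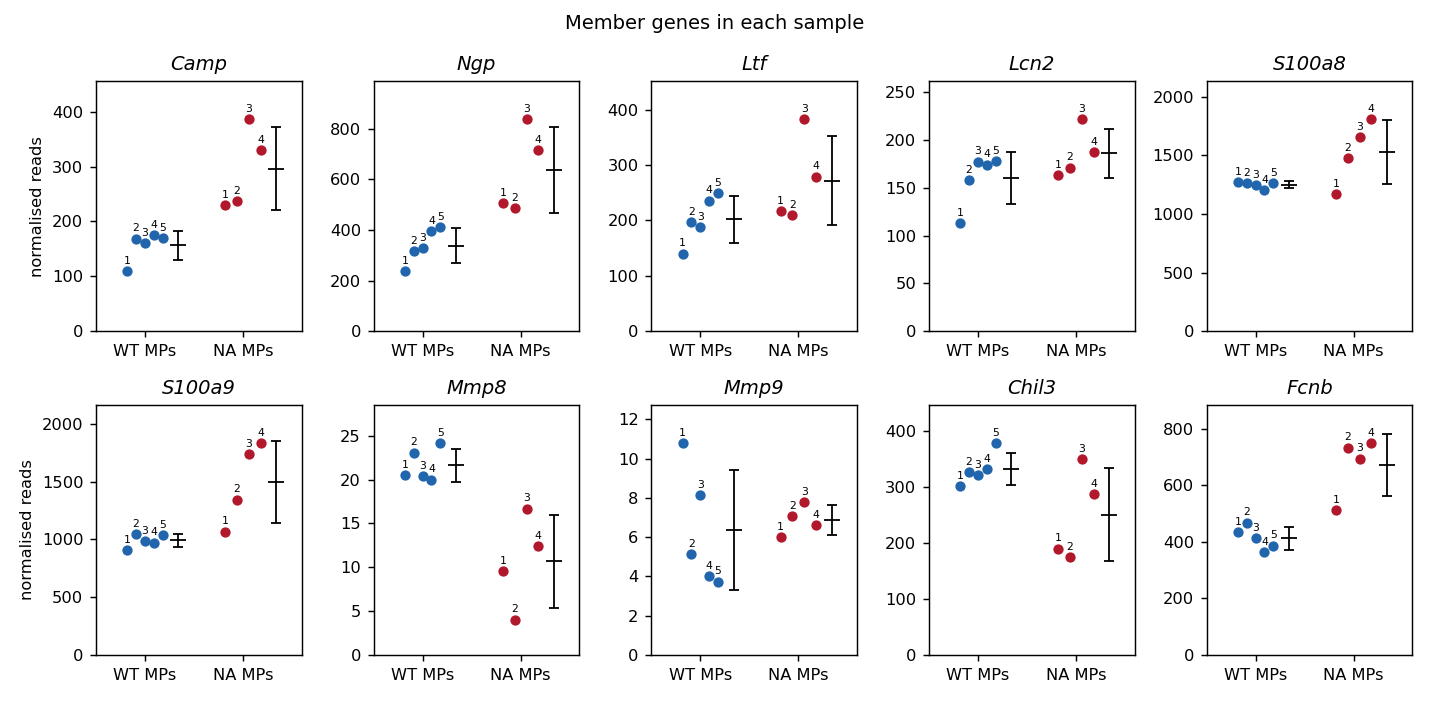
Normalised reads of each of the 10 genes in every sample, one panel per gene with its own vertical axis starting at 0. Points are samples numbered by replicate, with WT MPs (n = 5) on the left and NA MPs (n = 4) on the right of each panel, and bars give the mean and SD. In the panels of Camp, Ngp, S100a9 and Fcnb all NA MPs lie above all WT MPs, and in that of Mmp8 all lie below.

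S100a8 and S100a9 encode the subunits of calprotectin, a cytosolic zinc- and calcium-binding complex that neutrophils and monocytes share, and they had the highest levels of the 10 per kb of exon. S100a8 held 1172, 1478, 1656 and 1809 normalised reads in NA MPs and 1273, 1267, 1244, 1204 and 1264 in WT MPs. NA MP replicate 1 was below every WT MP, whereas the other NA MPs were above every WT MP. The log2 fold change was 0.27 (SE 0.12, 95% interval -0.01 to 0.55, limma adjusted p = 0.125), and without NA MP replicate 1 it was 0.39 with an adjusted p of 8.83e-09 from limma. The other 8 fits that left out 1 sample gave no call, and the log2 fold change was lowest without NA MP replicate 4, at 0.18 with an adjusted p of 0.253 from limma.

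S100a9 held 1067, 1345, 1739 and 1836 normalised reads in NA MPs and 911, 1046, 985, 972 and 1039.9 in WT MPs. The lowest NA MP and the highest WT MP were close, but the groups did not overlap. The means were 1496.7 ± 356.5 (SD, n = 4) and 990.8 ± 55.5 (SD, n = 5), and the log2 fold change was 0.56 (SE 0.16, 95% interval 0.19 to 0.94, limma adjusted p = 0.0311). This call needed nearly the whole set of samples. When 1 sample at a time was left out it remained past the threshold only without NA MP replicate 1 (log2 fold change 0.72, limma adjusted p = 0.00294), and it was lost in the other 8 fits, with adjusted p from 0.052 to 0.081 from limma and log2 fold changes from 0.45 to 0.60.

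Mmp8, the neutrophil collagenase of specific granules, went the other way. It held 9.6, 4.04, 16.7 and 12.4 normalised reads in NA MPs and 20.5, 23.1, 20.4, 20 and 24.2 in WT MPs. These were 8, 4, 15 and 15 reads against 19, 27, 20, 20 and 26 reads, so that few molecules lay behind each value. All NA MPs were below all WT MPs. The means were 10.7 ± 5.3 (SD, n = 4) and 21.6 ± 1.89 (SD, n = 5), and the log2 fold change was -1.09 (SE 0.27, 95% interval -1.64 to -0.54, limma adjusted p = 0.00142). Without NA MP replicate 2, the lowest, it was -0.73 with an adjusted p of 0.0192 from limma. Only 2 of the 4 NA MPs reached the minimum of 10 normalised reads, so Mmp8 entered the test through its level in WT MPs.

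Mmp9, the gelatinase that gives gelatinase granules their name, gave fewer reads still. It held 6.0, 7.08, 7.79 and 6.61 normalised reads in NA MPs and 10.8, 5.13, 8.15, 4.0 and 3.73 in WT MPs, from 4 to 10 reads a sample. The groups overlapped, and the exact two-sided permutation test over samples gave p = 0.556. The gene did not reach the minimum of 10 in 4 samples and was left out of the fit. With no minimum, its log2 fold change was 0.18 (SE 0.34, limma adjusted p = 0.753), so that a difference was not detectable at this depth.

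Chil3 encodes Ym1, a chitinase-like lectin without enzyme activity that neutrophil precursors and macrophages make. It held 189.7, 175, 349.6 and 287 normalised reads in NA MPs and 301, 326, 321, 331 and 378 in WT MPs. NA MP replicates 1, 2 and 4 were below every WT MP, and replicate 3 was within the WT range. The log2 fold change was -0.46 (SE 0.21, 95% interval -0.96 to 0.04, limma adjusted p = 0.15). Without NA MP replicate 3 it was -0.64 with an adjusted p of 0.0265 from limma, whereas without NA MP replicate 2 it was -0.31 with an adjusted p of 0.313 from limma.

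Fcnb encodes ficolin B, a lectin of the complement system that immature granulocytes produce. It held 513, 734, 695 and 750.5 normalised reads in NA MPs and 434, 468, 415, 364 and 387 in WT MPs, and the groups did not overlap. The means were 673 ± 109.5 (SD, n = 4) and 413.5 ± 40.4 (SD, n = 5), a log2 fold change of 0.69 (SE 0.13, 95% interval 0.39 to 1.0, limma adjusted p = 0.00455). Fcnb stayed past the threshold whichever sample was left out, as did Camp, with the highest adjusted p from limma at 0.0164 for Fcnb and 0.0394 for Camp. Mmp8 did so too, with the highest adjusted p from limma at 0.0192. Its values rested on few reads, however, and it was tested only through its level in WT MPs.

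Of the 10 members 9 were tested, and 5 passed an adjusted p of 0.05 from limma, 4 higher and 1 lower in NA MPs. The lower one, Mmp8, was tested only through its level in WT MPs, and the count was 4 when at least 10 normalised reads were asked of every sample. Over all 11987 genes tested, 34.3% passed this threshold, 16.9% in the higher and 17.3% in the lower direction. The median log2 fold change of the 9 members was 0.41, that of all genes tested was -0.0081. The groups did not overlap for 5 members, against 26.3% of all genes. For each of these 5 the unadjusted exact two-sided permutation p was 0.0159, the smallest that 4 against 5 samples can give. Lack of overlap fixes this value, so it adds nothing to that count. With so many genes called in the series and so few members, these counts describe the members and are not evidence that the list as a whole stands apart. Leaving out NA MP replicate 1, which stood apart, gave 6 members past the threshold, leaving out WT MP replicate 1 gave 4, and leaving out NA MP replicate 4 gave 3, with Ngp and S100a9 lost.

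**Figure D2:**
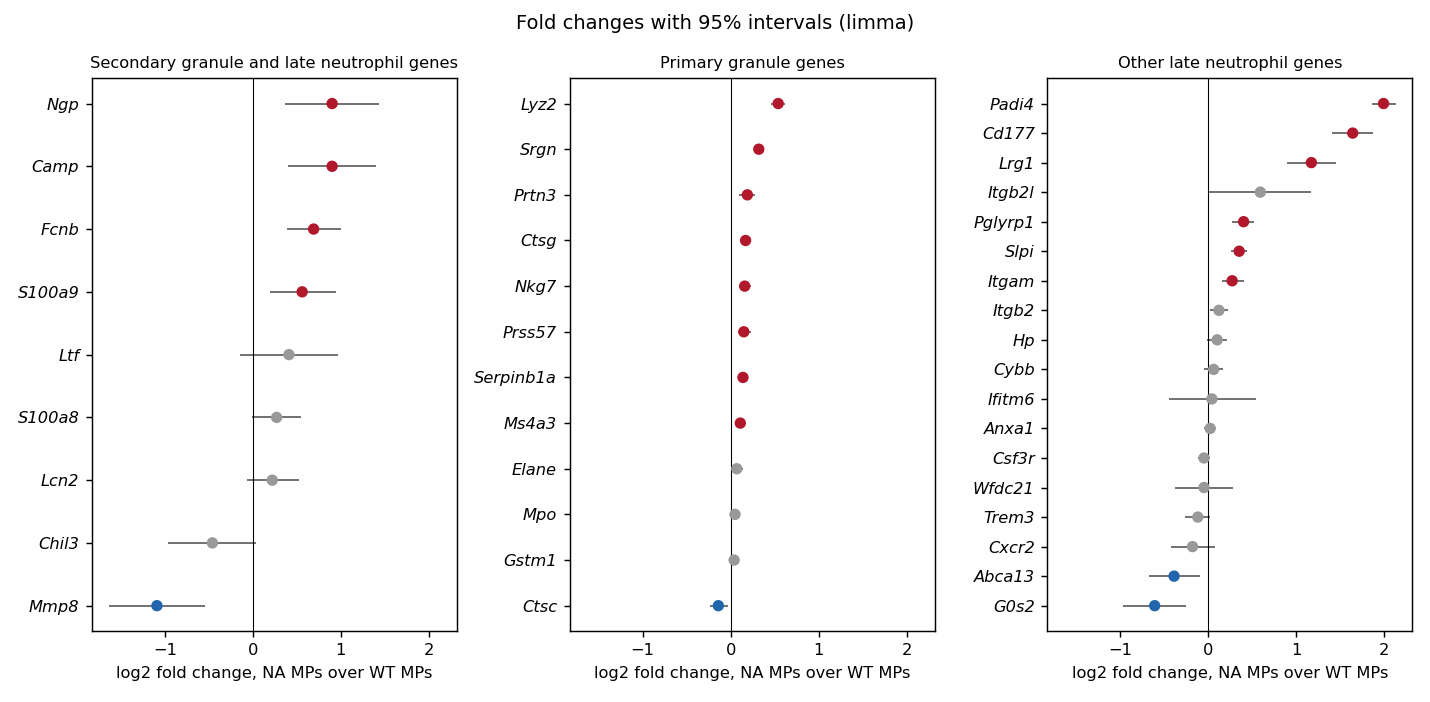
Log2 fold change of NA over WT MPs, on the scale of log2(normalised reads + 1), for the tested members (left), primary granule genes (middle) and other late neutrophil genes (right, leaving out what is not reported by name), with 95% intervals as horizontal bars. The vertical line marks no difference, and coloured points mark genes past an adjusted p of 0.05 from limma (red higher, blue lower, grey not past). Camp, Ngp, S100a9 and Fcnb lie to the right of the line and Mmp8 to the left, while the intervals of Ltf, Lcn2, S100a8 and Chil3 cross it.

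The order of the levels was much alike in the groups when each gene was scaled to the length of its exons. In normalised reads per kb, S100a9 was first in NA MPs at 2867.2 ± 683 (SD, n = 4) and S100a8 second at 2202.7 ± 394.5, and their ranges over samples overlapped. Ngp followed at 520.4 ± 138.7, Fcnb at 502.6 ± 81.7 and Camp at 390.5 (302.5 to 509.7 over samples), and the ranges of Ngp and Fcnb overlapped, as did those of Fcnb and Camp. Chil3 (153.3 ± 50.7), Ltf (78.9 ± 23.3) and Lcn2 (70.8 ± 9.88) formed a lower set in which neighbours overlapped again, and Mmp8 (4.41 ± 2.19) and Mmp9 (1.94 ± 0.214) came last.

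In WT MPs the order per kb began with S100a9 at 1898 ± 106.2 (SD, n = 5) and S100a8 at 1801.9 ± 40.9, again with overlapping ranges. Fcnb (308.8 ± 30.2) stood before Ngp (276.2 ± 56.8), Camp (206.4 ± 35.7) and Chil3 (203.1 ± 17.5), with each overlapping the next. Chil3 thus lay level with Camp in WT MPs, while in NA MPs the ranges of Camp and Chil3 were apart. Lcn2 (61.1 ± 10.4) and Ltf (58.6 ± 12.4) overlapped, and Mmp8 (8.93 ± 0.781) and Mmp9 (1.8 ± 0.858) were last and did not overlap.

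The members did not keep their proportions to each other between the groups. The ratio of Ngp to Chil3 was 2.66, 2.78, 2.39 and 2.49 in NA MPs and 0.792, 0.966, 1.02, 1.2 and 1.09 in WT MPs. The ratio of Ltf to Ngp was 0.43, 0.43, 0.457 and 0.391 in NA MPs and 0.588, 0.628, 0.576, 0.596 and 0.605 in WT MPs. Both ratios were apart between the groups in all 9 samples.

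The ratio of Camp to Ngp, in contrast, overlapped, at 0.454 to 0.489 in NA MPs and 0.413 to 0.535 in WT MPs, and the highest and the lowest of the 9 values were both WT MPs. The ratio of S100a9 to S100a8 was 0.91 to 1.05 in NA MPs and 0.715 to 0.826 in WT MPs, and that of Ngp to Mmp8 was 50.1 to 120.0 against 11.6 to 19.8. These pairs were chosen after the values had been seen, and no test was made of them.

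**Figure D3:**
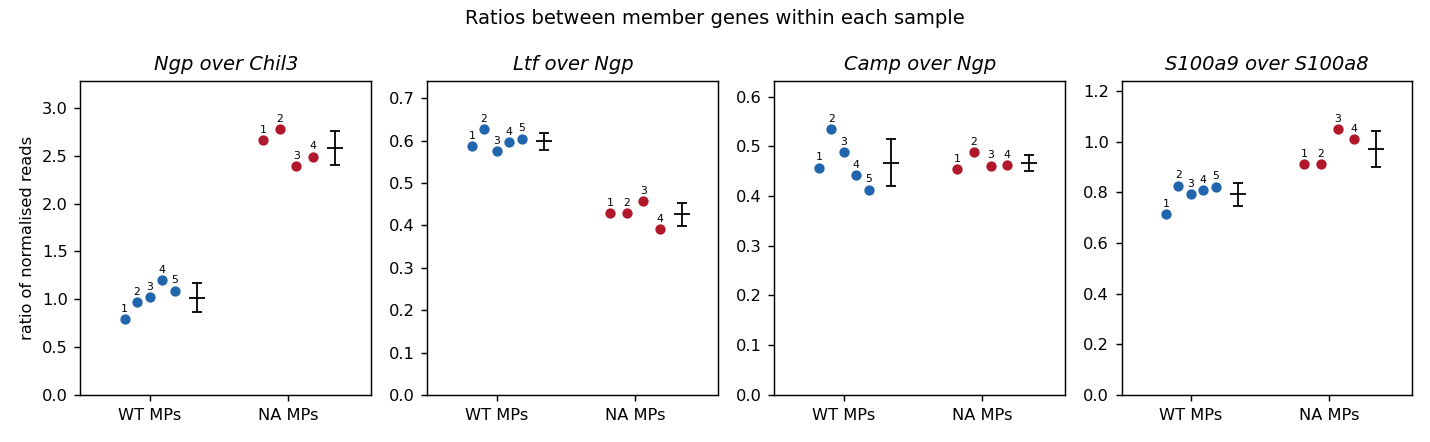
Ratio of normalised reads of one member to another within each sample, for Ngp over Chil3, Ltf over Ngp, Camp over Ngp and S100a9 over S100a8. Points are samples numbered by replicate, WT MPs (n = 5) left and NA MPs (n = 4) right, with mean and SD, and every axis starts at 0. The groups are apart for 3 of the 4 ratios and overlap for Camp over Ngp.

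For every tested member but Lcn2 the spread between samples was wider in NA MPs than in WT MPs. The coefficient of variation of Camp was 25.6% in NA MPs and 17.3% in WT MPs, that of Ngp 26.7% and 20.6%, and that of Ltf 29.5% and 21.2%. For comparison, tested genes within 1.5-fold of the level of Camp had a median of 6.97% in NA MPs and 6.43% in WT MPs. S100a8 varied by 17.9% in NA MPs and by 2.27% in WT MPs, where genes of its level had medians of 3.6% and 3.17%, and Chil3 by 33.1% and 8.61%. The members with the widest spread in WT MPs were Ltf, Ngp, Camp and Lcn2 among those tested, whereas Mmp8, at 49.6% in NA MPs against 8.75% in WT MPs, rested on few reads. Genes of the level of Mmp8 had medians of 23.8% and 24.0%, so in WT MPs both S100a8 and Mmp8 were below the median of genes of their level. Whether either lay outside the usual range of such genes was not tested.

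The samples ranked alike for most members. NA MP replicates 3 and 4 were both above replicates 1 and 2 for 8 of the 10 members, all but Mmp9 and Fcnb. Replicate 3 was the highest NA MP for 7 members and replicate 4 for the other 3. Among WT MPs, replicate 1 was the lowest for 6 members, Camp, Ngp, Ltf, Lcn2, S100a9 and Chil3. The mean log2 level of the 10 members was 7.5, 7.52, 8.13 and 7.96 in NA MPs and 7.38, 7.54, 7.56, 7.52 and 7.59 in WT MPs, so that NA MP replicates 1 and 2 were within the WT range on this mean while 3 and 4 were above it.

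**Figure D4:**
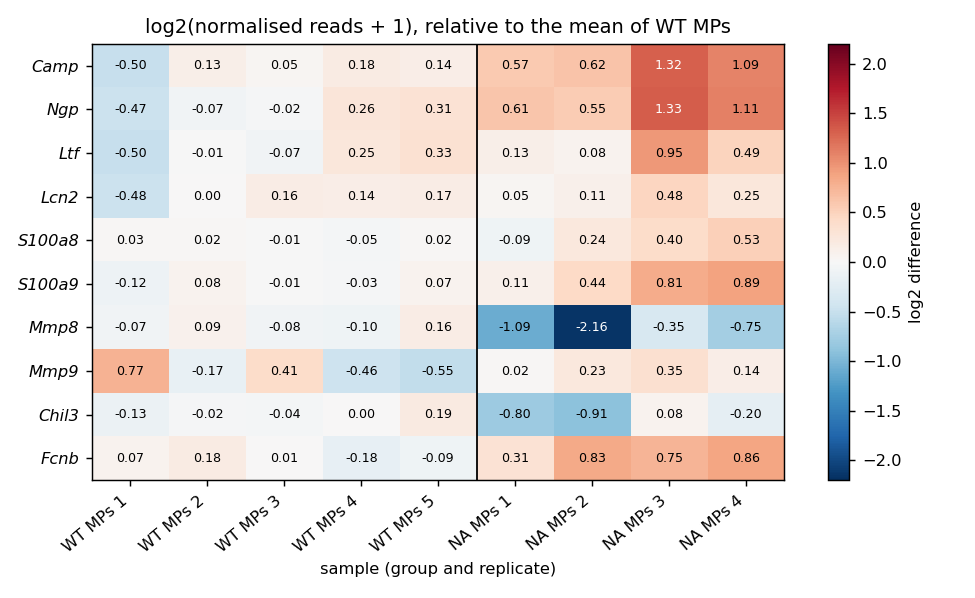
Difference of log2(normalised reads + 1) from the mean of WT MPs, for each of the 10 genes (rows) in each of the 9 samples (columns), with the value printed in each cell and red for higher and blue for lower. Camp and Ngp are above 1 in NA MP replicates 3 and 4 and near 0.6 in replicates 1 and 2, and in WT MP replicate 1 Camp, Ngp, Ltf and Lcn2 are all near -0.5.

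The genes whose pattern was most like that of the members, after the group means had been taken out, were Fancb, Bcl2l13, Rnf169, Hspa13 and Cdcp1, with Pearson's r of 0.95 to 0.96 with the mean of the 9 tested members over the 9 samples. Cdcp1 was tested only through its level in WT MPs and held 3 reads or fewer in each NA MP, so that its pattern among NA MPs cannot be told from counting error. Of the members themselves, Camp and Chil3 followed that mean at 0.94, S100a9 at 0.92 and Ngp at 0.90, while Fcnb followed it least, at 0.40. Each tested member is itself part of that mean, which raises its r, so the members cannot be set directly against the outside genes. All r values share the samples, those of the outside genes were chosen as the highest among 11987 genes, and all are given as a description.

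Other genes of maturing neutrophils were taken as a list of 34, of which 19 were tested. In NA MPs 7 of them were higher, 2 were lower and 10 did not pass an adjusted p of 0.05 from limma, and the list's median log2 fold change was 0.10. Padi4, the enzyme that citrullinates histones during extracellular trap formation, held 661 ± 18.9 normalised reads in NA MPs (SD, n = 4) and 166.4 ± 19.6 in WT MPs (SD, n = 5), a log2 fold change of 1.99 (SE 0.066, limma adjusted p = 2.48e-26). Cd177, a surface glycoprotein of specific granules and the plasma membrane, held 134, 171, 207 and 217 in NA MPs and 51.8, 52.2, 61.1, 61.0 and 58.7 in WT MPs (log2 fold change 1.64, SE 0.11, limma adjusted p = 2.07e-15).

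Lrg1, a secreted glycoprotein of neutrophil granules, was also higher (log2 fold change 1.17), as were the peptidoglycan-binding protein Pglyrp1 (0.40), the protease inhibitor Slpi (0.35) and Itgam (0.27), all past an adjusted p of 0.05 from limma. Reads of Itgam may be shared with an overlapping gene model on the same strand. Abca13 (-0.39) and G0s2 (-0.61) were lower. Hp (0.10, limma adjusted p = 0.169) and Anxa1 (0.02, limma adjusted p = 0.649) held more reads than these genes of the list and did not pass. The 15 genes of this list that were not tested reached at most 14.5 normalised reads in any sample, and BC100530, Stfa2 and Stfa3 were at 0 in every one. Summed over the list, NA MPs held 11158 to 12323.7 and WT MPs 9687 to 10110.1 normalised reads.

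Genes of the earlier, primary granules took far more of the reads. Their list of 12 summed to 174229.1 to 190930.8 normalised reads in NA MPs and 167845.8 to 174391.2 in WT MPs, against 4071.9 to 6291.8 and 3551.4 to 4104.6 for the 10 members. Of these 12 genes 8 were higher, 1 was lower and 3 did not pass, with a median log2 fold change of 0.15. The proteases Prtn3 and Ctsg were higher by 0.19 and 0.17 on the log2 scale and Lyz2, lysozyme, by 0.54, whereas the log2 fold change of Mpo, myeloperoxidase, was 0.05 (limma adjusted p = 0.175) and that of Elane, neutrophil elastase, 0.07 (limma adjusted p = 0.138). Ctsc, which activates these proteases, was lower by a log2 fold change of -0.14.

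Of 17 regulators of granulocyte development 8 were higher, 2 were lower and 7 did not pass, with a median log2 fold change of 0.10. Cebpe, the C/EBP factor that secondary granule genes require, held 272.5, 392, 341 and 318 normalised reads in NA MPs and 388.5, 391, 391, 371 and 367 in WT MPs. Its log2 fold change was -0.22 (SE 0.071, limma adjusted p = 0.0181), and the groups overlapped through NA MP replicate 2. Cebpd, which overlaps another gene on the opposite strand, was higher (0.23, limma adjusted p = 0.0105), and the log2 fold changes of Cebpa (-0.05), Cebpb (0.10), the repressor Gfi1 (-0.03) and the receptor Csf3r (-0.05) did not pass. Spi1, which encodes PU.1, was higher by 0.14, and Stat3 by 0.28.

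Marker genes of other cells moved between the groups too. The 8 B-lineage markers were all higher in NA MPs, with a summed level of 936.3 to 1802.7 normalised reads against 248.6 to 272.1. Among them, Pax5 (2.67 ± 1.01 in WT MPs, SD, n = 5) and Ebf1 (10.6 ± 3.16) entered the test only through NA MPs. Of 13 tested markers of monocytes and macrophages, which also express S100a8, S100a9 and Chil3, 8 were higher and 2 were lower, with sums of 13875.8 to 16332.5 and 13202.6 to 14178.5. Of 8 tested eosinophil markers 2 were higher and 4 lower, with sums of 957.9 to 1587.3 and 1591.5 to 1980.2. Of these, Ccr3, which was higher, entered the test only through NA MPs, at 4.05 ± 3.46 in WT MPs (SD, n = 5). Ear1, which was lower, entered it only through WT MPs, at 10.2 ± 2.97 in NA MPs (SD, n = 4). Of 9 tested erythroid markers 7 were lower, with sums of 3401.2 to 4320.4 and 6355.8 to 7260.4. The part of these cell types in the members' levels was not tested.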

How the data were processed

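Polyadenylated RNA of 4 NA MP and 5 WT MP samples was sequenced. The authors aligned and counted reads with RSEM against mm10 and name DESeq2 for normalisation and testing (labels and study methods; versions are not given in the sources used here). The deposited values are a signal, not raw counts: in each column 97.3% to 97.6% of values above 0.05 were whole multiples, within 0.02, of 1 step, which ran from 0.82656 to 1.2004 between samples, so the authors' reads had been divided by a size factor per sample. Deposited totals ran from 6602851 to 6734284, and the steps gave 5557718 to 8106140 reads. A count model had been planned for raw estimated counts and was replaced, since the values were already normalised.

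Genes with at least 10 normalised reads in at least 4 samples (11987 genes) were tested with limma 3.58.1 (R 4.3.3) on log2(value + 1), with trended and robust variance, without covariates, and p-values were adjusted by Benjamini-Hochberg with a threshold of 0.05. The size factors as deposited were kept. The exact two-sided permutation test over samples used scipy 1.17.1. On simulated data with 197 changed genes among 11981, 94.9% were recovered and 6.5% of calls were false (97% of 2-fold and 87.7% of 1.5-fold changes recovered). The simulation gave every gene in both groups the same spread between samples beyond counting error. In NA MPs the tested members varied more than the median of genes of like level, so these rates need not hold for them. The members and the gene lists were chosen with earlier results of these data known. All members are named, together with examples from the lists and the 5 genes most correlated with the members. The examples were not picked by abundance alone. In the lists of other late neutrophil genes and of granule packing and release they were mostly genes past the threshold. Some genes that the lists count are not reported here by name or plotted. Symbols came from GENCODE and promoters from RefSeq. Alternatives changed the scaling, the filter, the pseudocount, the robust option, the threshold, a replicate block and the samples.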

Additional observations from a re-analysis of the deposited data

Results flagged for a closer look

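Camp in WT MP replicate 1, at 109.0 normalised reads, lay far below the other WT MPs, with a gap to the nearest sample of 0.771 of the group's range. It was the only 1 of 20 groups examined (10 members in each genotype) with such a sample, and chance gives about 1. Without WT MP replicate 1 the log2 fold change of Camp was 0.78 (adjusted p = 0.0122 from limma).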

How the results depend on the processing

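Of the 10 members, 5 were past the threshold. The count was 5 with recomputed size factors, totals only, trimmed mean of M values, no filter or a pseudocount of 0.5 or 4 (the trimmed mean and these pseudocounts were chosen after seeing the data), 4 with at least 10 in every sample, where Mmp8 dropped out, 8 without the robust option (adding Ltf, S100a8 and Chil3, adjusted p from limma of 0.0271, 0.00426 and 0.00687), 2 at an adjusted p threshold of 0.01 (Mmp8 and Fcnb), and 3 to 6 when 1 sample was left out (3 without NA MP replicate 4). At 0.01, 6 regulators passed. Leaving out 1 sample gave 3625 to 3937 genes changed over all genes (4107 in the full set), 1812 to 1949 of them higher, 8 to 10 primary granule genes, 8 to 10 regulators, and 8 to 14 other late neutrophil genes, with 14 without NA MP replicate 1. The difference in mean log2 level of the members was 0.26 and ran from 0.14 to 0.35. No fold change reversed. Replicate numbers did not pair the samples (r from -0.02 to 0.057 for same-numbered pairs). A replicate block gave 5 members, losing S100a9 (0.58, adjusted p = 0.0889 from limma) and gaining Lcn2 (0.27, adjusted p = 0.0143 from limma). The planned count-model fits were not run, since the values were not raw counts. Mmp8 and Mmp9 are limited by depth.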

Other observations

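Other families of the members were examined as well. Of the 22 matrix metalloproteinase and inhibitor genes outside the members 7 were tested. Mmp14, a membrane-bound enzyme, was lower in NA MPs, at 78.2 ± 9.62 normalised reads (SD, n = 4) against 155.8 ± 17.9 in WT MPs (SD, n = 5), and so were Mmp2 (log2 fold change -1.52) and Mmp28 (-0.27), whereas Mmp11 (1.97) and the inhibitor Timp2 (0.33) were higher, all past an adjusted p of 0.05 from limma. Mmp2 entered the test only through WT MPs, at 4.42 ± 2.72 normalised reads in NA MPs (SD, n = 4), and Mmp11 only through NA MPs, at 5.14 ± 1.65 in WT MPs (SD, n = 5). Of 10 other S100 genes 6 were tested, and S100a6 alone passed (log2 fold change 0.51, adjusted p = 0.0215 from limma). Of 5 other chitinase-like genes 2 were tested and neither passed. Of 13 genes for packing and release of granules 5 were higher and 3 were lower. Among them, Unc13d, which primes granules for fusion, had a log2 fold change of 0.30, and Lyst, the gene of Chediak-Higashi syndrome, of -0.45 (adjusted p = 9.04e-09 from limma).

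Of the tested genes in other marker lists, mast cell and basophil genes were mostly higher in NA MPs (5 of 7 higher, 1 lower), and megakaryocyte genes were mixed (1 higher and 2 lower of 6). The 2 tested T and NK cell genes were both higher, with Cd3e, Cd3g and Trac at 0 in every sample. One of these, Nkg7, is also counted in the list of primary granule genes. Trib1, which encodes an adaptor that targets C/EBP proteins for degradation, held 38.4, 37.4, 151 and 139 normalised reads in NA MPs and 6.47, 10.3, 19.4, 18 and 27 in WT MPs (log2 fold change 2.28, adjusted p = 0.0237 from limma). NA MP replicates 3 and 4 were the highest of the 9 samples for it. Among NA MPs alone they were also the highest for 8 of the 10 members, although for Mmp8 both lay below every WT MP. Trib1 was singled out after its values had been seen.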
